A study of Arabidopsis thaliana with 48 samples.

Results

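The genes described here are the nuclear genes for the Rubisco small subunit and the gene for Rubisco activase in Arabidopsis thaliana, chosen by locus: RBCS1A (AT1G67090), RBCS1B (AT5G38430), RBCS2B (AT5G38420), RBCS3B (AT5G38410) and RCA (AT2G39730). They are 5 of the 27420 genes in the count table, and all 5 passed the filter on low counts, as did 17981 genes in all. Rubisco fixes CO2 in the chloroplast stroma and is built from large subunits encoded in the plastid and small subunits encoded in the nucleus, so the RBCS mRNAs are made in the nucleus, exported and translated in the cytosol. Rubisco activase is an ATPase that removes inhibitory sugar phosphates from Rubisco's active site, and it is known as a heat-sensitive step of photosynthesis in leaves. The large subunit gene is in the plastid and was not analysed here.

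RNA came from rosettes of plants 14 days old, which were either the wild type Col-0 or tho5ab, a double mutant of the genes for subunit 5 of the THO complex, a complex that joins mRNA during transcription and has a role in export. Heated plants spent 3 h at 37 °C and were harvested at once, and the others were kept at 21 °C. Nuclei and cytoplasm were separated by centrifugation, which gave 8 groups of 6 libraries. The study asked about mRNA export in tho5ab under heat stress. The labels call the tissue seedling, name neither the tho5ab alleles nor their type, and do not say whether the libraries of a group came from separate plants, so each p measures the spread between these libraries, which may be technical. A fraction is a bulk sample, in which fewer cells of a type and less RNA per cell cannot be told apart.

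Cytoplasmic libraries held 1025185 to 2174279 counts and nuclear libraries 2601946 to 19914838, so every nuclear library was deeper. Counting error follows the counts of a gene itself, and these were not always higher in nuclei. RBCS3B, for example, had 5695 counts in cytoplasm and 4305 in nuclei in replicate 1 of Col-0 at 21 °C. THO5B had 0 counts in all 12 tho5ab cytoplasmic libraries and at most 3.01 CPM (the usual depth-scaled count, here on TMM-scaled library totals) in tho5ab nuclei, against 3.63 to 6.79 CPM in Col-0 nuclei. THO5A was not lower in every tho5ab group, with a mean of 98.4 CPM in tho5ab nuclei at 21 °C against 34.3 CPM in Col-0, although at 37 °C it was 39.8 CPM against 185 CPM. The highest tho5ab library there, replicate 7, held 118 CPM and the other 5 held 15.6 to 42.2 CPM. Its cytoplasmic counterpart also stood apart, with a TMM factor of 0.635 against 0.454 to 0.516 in the others, so values without these 2 heated tho5ab libraries are given below where they change the call of a single gene. In 16 of the 48 libraries, spread over all 8 groups, counts were raised at genes that lie inside another gene in antisense. Values from the other 32 libraries are given beside the results. Of these 16, some groups hold 1 library, too few for values of their own. The 4 mesophyll marker genes had counts in all 48 libraries, with a summed level of 51500 to 123000 CPM in Col-0 cytoplasm at 21 °C, and the guard cell gene KAT1 had counts in 40. Of the 3 root markers, IRT1 and NRT2:1 reached at most 1.95 and 2.47 CPM in any library, whereas PYK10 had counts in all 48, at 25.3 to 576 CPM in cytoplasm and 30.2 to 546 CPM in nuclei.

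RBCS1A lies on chromosome 1 at 25048158 to 25049667. The other 3 small subunit genes lie side by side on chromosome 5, RBCS3B at 15376988 to 15378642, RBCS2B at 15380907 to 15382071 and RBCS1B at 15383167 to 15385320 (TAIR10.1, RefSeq annotation, all on the reverse strand). Each has 3 exons and 2 introns, none overlaps another gene, and the coding sequences are 543 bp in RBCS1A and 546 bp in the others. The coding sequence of RBCS1A was 89.9% to 90.1% identical to those of the other copies, while RBCS1B, RBCS2B and RBCS3B were 96.7% to 97.3% identical to each other, with 15 to 18 differing bases. In the 200 bases after the stop codon the identity between copies was 45.0% to 62.8%. The windows below are stretches of 100 coding bases where the copies on chromosome 5 are most and least alike. Whether a read can be placed on 1 copy also depends on its length, which is not known here. In coding bases 361 to 460 RBCS3B is identical to RBCS1B, RBCS2B differs at 1 base and RBCS1A at 8, and capitals mark the bases unlike RBCS1B (RefSeq, TAIR10.1, reverse strand, 5′ to 3′; chr5:15384436-15384535, chr5:15381289-15381388, chr5:15377587-15377686 and chr1:25048548-25048647 in the order shown).
RBCS1B: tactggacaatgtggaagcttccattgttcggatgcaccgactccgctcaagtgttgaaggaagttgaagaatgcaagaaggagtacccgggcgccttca
RBCS2B: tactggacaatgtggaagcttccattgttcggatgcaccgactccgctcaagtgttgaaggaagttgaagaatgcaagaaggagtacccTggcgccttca
RBCS3B: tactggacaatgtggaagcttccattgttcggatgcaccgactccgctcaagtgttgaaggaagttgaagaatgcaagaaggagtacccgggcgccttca
RBCS1A: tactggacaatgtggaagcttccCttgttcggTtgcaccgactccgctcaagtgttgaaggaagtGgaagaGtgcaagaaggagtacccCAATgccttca

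Coding bases 51 to 150, toward the start of the coding sequence, are the least alike stretch of that length when RBCS2B and RBCS3B are set against RBCS1B. There 4 bases of RBCS2B, 10 of RBCS3B and 16 of RBCS1A are unlike RBCS1B, again in capitals (chr5:15385006-15385105, chr5:15381829-15381928, chr5:15378157-15378256 and chr1:25049100-25049199, reverse strand).
RBCS1B: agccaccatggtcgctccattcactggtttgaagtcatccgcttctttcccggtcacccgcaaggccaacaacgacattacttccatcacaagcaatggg
RBCS2B: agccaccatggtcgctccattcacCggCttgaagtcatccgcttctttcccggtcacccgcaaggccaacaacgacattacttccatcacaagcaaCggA
RBCS3B: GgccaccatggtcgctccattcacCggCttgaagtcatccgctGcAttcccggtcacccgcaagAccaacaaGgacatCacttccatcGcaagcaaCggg
RBCS1A: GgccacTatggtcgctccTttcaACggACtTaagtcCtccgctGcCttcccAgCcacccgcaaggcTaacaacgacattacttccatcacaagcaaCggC

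Of all stretches of 75 bases in a spliced transcript, 164 of 1820 in RBCS1B, 43 of 861 in RBCS2B and 170 of 1136 in RBCS3B occur unchanged in another copy. None of the 1194 in RBCS1A and none of the 1903 in RCA does. Read length and the handling of reads with several positions are not given in the sources used here. Counts of RBCS1B, RBCS2B and RBCS3B are therefore uncertain as a split among the 3 genes, and their sum is given beside the results that rest on it. At that length RBCS1A can be separated from them.

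In Col-0 cytoplasm at 21 °C the 4 RBCS genes together held 1.64% ± 0.170 (SD, n = 6) of all counts and RCA held 0.854% ± 0.0919. Per kilobase of coding sequence, RBCS1A was the highest there at 23180 ± 3943 CPM, followed by RBCS3B at 13880 ± 2110, RCA at 8590 ± 1095, RBCS2B at 4379 ± 441 and RBCS1B at 1866 ± 186. The place of RCA below RBCS3B rests on that choice of length. The coding sequences are 546 bp in RBCS3B and 1425 bp in RCA, whereas the annotated exons are 1410 bp and 2101 bp. At 37 °C RBCS3B, at 11870 ± 2005 CPM per kilobase, stood above RBCS1A at 7422 ± 1191 in Col-0 cytoplasm, and the values in that of tho5ab were 14170 ± 4721 for RBCS3B and 8174 ± 2685 for RBCS1A. The order of the copies at the top was thus exchanged between the temperatures in the cytoplasm of both genotypes.

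**Figure D1:**
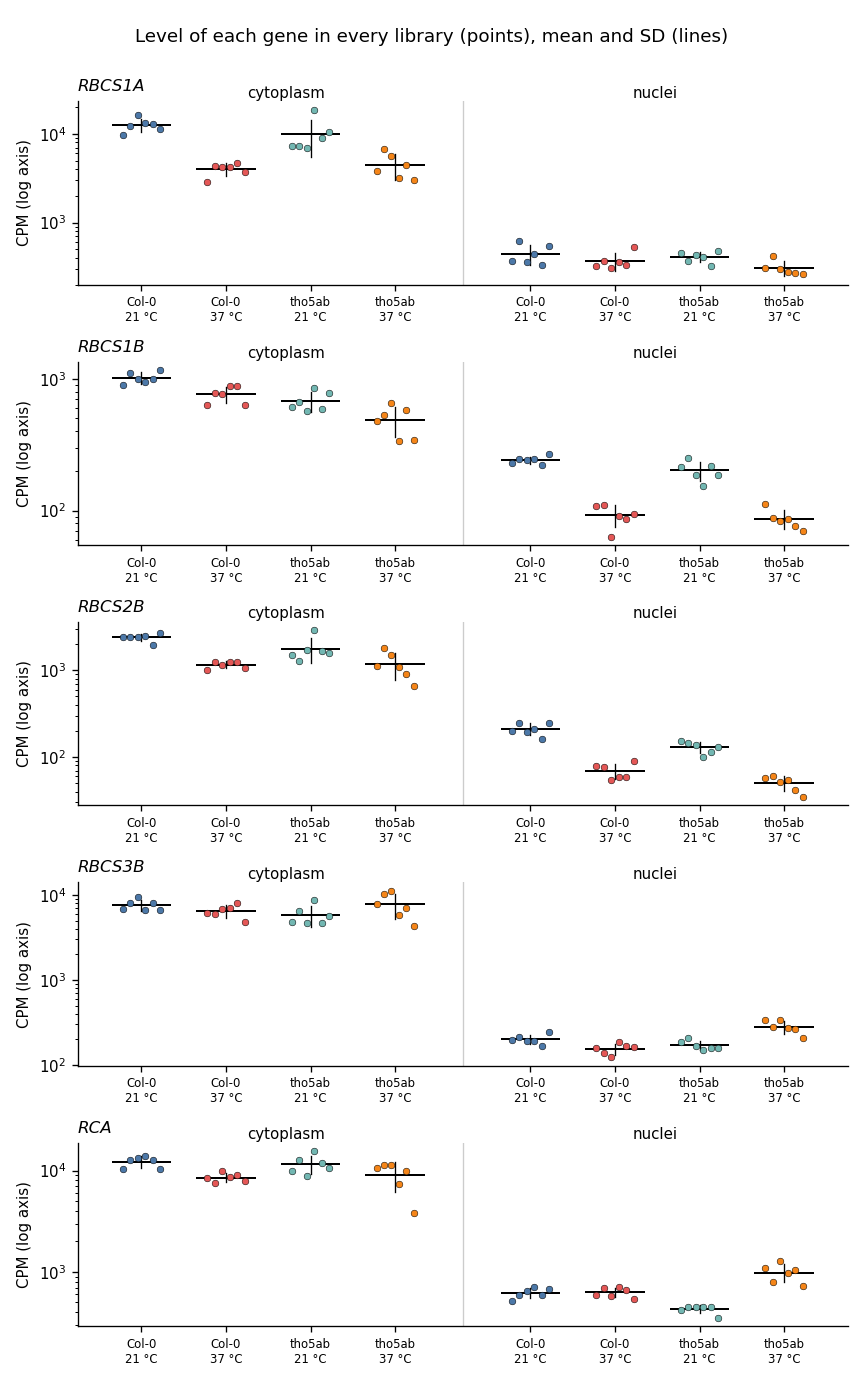
CPM on a log axis for each gene in each of the 48 libraries (points), with the group mean (wide line) and SD (thin line), cytoplasm on the left and nuclei on the right, 6 libraries in each of the 8 groups. RBCS1A falls from 12580 to 4030 CPM on average in Col-0 cytoplasm, and RCA stands highest among the nuclear groups in tho5ab at 37 °C, at 986 CPM.

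RBCS1A fell with heat in the cytoplasm of both genotypes. In Col-0 cytoplasm it ranged from 9734 to 16080 CPM (median 12600) at 21 °C and from 2882 to 4749 CPM (median 4254) at 37 °C. In tho5ab cytoplasm it ranged from 6968 to 18770 CPM (median 8125) at 21 °C and from 2985 to 6692 CPM (median 4104) at 37 °C. The libraries of the 2 temperatures did not overlap in either genotype, although replicate 5 of tho5ab at 21 °C stood far above the other 5. The fitted change was a 3.12-fold fall in Col-0 (log2 −1.64 ± 0.20 SE, edgeR adjusted p = 1.1e-09) and a 2.24-fold fall in tho5ab (log2 −1.16 ± 0.19, edgeR adjusted p = 2.7e-06). The difference between these changes did not pass the test (log2 0.48 ± 0.27, edgeR adjusted p = 0.33).

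RBCS2B, the middle copy of the chromosome 5 cluster, fell as well. It held 1949 to 2684 CPM (median 2433) at 21 °C and 1004 to 1262 CPM (median 1200) at 37 °C in Col-0 cytoplasm, a 2.05-fold fall with no overlap (edgeR adjusted p = 2.3e-06). In tho5ab cytoplasm the ranges overlapped, 1265 to 2886 CPM (median 1644) against 660 to 1806 CPM (median 1106), and the fall was called too (log2 −0.58 ± 0.17, edgeR adjusted p = 0.0051). Without replicate 5 the call in tho5ab was lost (log2 −0.37, edgeR adjusted p = 0.092). RBCS1B, the least abundant copy, went from 890 to 1166 CPM (median 998) at 21 °C to 627 to 881 CPM (median 772) at 37 °C in Col-0 cytoplasm, with no overlap. In tho5ab cytoplasm it went from 566 to 854 CPM (median 640) to 337 to 653 CPM (median 507), with overlap. Its falls were 1.34-fold (edgeR adjusted p = 0.015) and 1.39-fold (edgeR adjusted p = 0.0070). The call was lost in tho5ab without replicate 5 (log2 −0.31, edgeR adjusted p = 0.11) or without replicate 7 (log2 −0.35, edgeR adjusted p = 0.066).

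RBCS3B did not follow the other copies. In Col-0 cytoplasm it held 6578 to 9508 CPM (median 7380) at 21 °C and 4800 to 8031 CPM (median 6562) at 37 °C. The log2 difference of −0.23 ± 0.16 did not pass the test (edgeR adjusted p = 0.26). It was called with DESeq2 size factors (log2 −0.41, edgeR adjusted p = 0.032) and with library totals only (log2 −0.39, edgeR adjusted p = 0.016), each of which moved the median of all genes from log2 0.07 to −0.08. In tho5ab cytoplasm it held 4632 to 8710 CPM (median 5248) and 4366 to 11200 CPM (median 7447), and the fit gave a 1.33-fold rise (log2 0.41 ± 0.16, edgeR adjusted p = 0.036), which turned to −0.18 with library totals only (edgeR adjusted p = 0.28). With DESeq2 size factors it was log2 0.28 (edgeR adjusted p = 0.15), and the ranges overlapped in both genotypes. Leaving out replicate 1, 2, 4 or 6 also ended the call, with log2 values of 0.35, 0.35, 0.26 and 0.38. The genotype difference in the heat change of RBCS3B in the cytoplasm did not pass the test (log2 0.63 ± 0.23, edgeR adjusted p = 0.096). It was called without replicate 5 (log2 0.90, edgeR adjusted p = 0.029) or without replicate 7 (log2 0.78, edgeR adjusted p = 0.026), also where only the 2 heated tho5ab libraries of that number were left out (log2 0.75, edgeR adjusted p = 0.025). For RBCS1B, RBCS2B and RBCS3B summed, the genotype difference in the main fit was log2 0.57 ± 0.21 (edgeR adjusted p = 0.11).

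In Col-0 cytoplasm 4 of the 5 genes, all but RBCS3B, were called lower at 37 °C, where 44.4% of all tested genes passed the test in either direction and 19.7% were lower. In tho5ab cytoplasm 3 were called lower and 1 higher, where 42.1% passed the test, 22.2% higher and 20% lower. With library totals as the only scaling 4 were lower and 0 higher in tho5ab cytoplasm, where 6434 of the 17981 tested genes were lower and 1870 higher. The median of all genes there moved from log2 −0.01 to −0.56, so RBCS3B at −0.18 lay above it. The sum of RBCS1B, RBCS2B and RBCS3B fell 1.31-fold in Col-0 cytoplasm (edgeR adjusted p = 0.033), a call lost in the 32 libraries alone (log2 −0.35, edgeR adjusted p = 0.16). In tho5ab the sum gave log2 0.18 ± 0.15 (edgeR adjusted p = 0.34), which turned to −0.40 with library totals only (edgeR adjusted p = 0.0060). It was a called rise without replicate 5 (log2 0.40, edgeR adjusted p = 0.036). In the 32 libraries RBCS1A gave log2 −1.69 in Col-0 and −1.32 in tho5ab, RBCS2B −0.87 and −0.62, RBCS1B −0.33 and −0.51, and RBCS3B −0.26 and 0.28. Of these the call of RBCS1B in Col-0 (edgeR adjusted p = 0.13) and that of RBCS3B in tho5ab (edgeR adjusted p = 0.28) were lost. The summed level of the 4 mesophyll markers was 19900 to 27900 CPM in heated Col-0 cytoplasm against 51500 to 123000 CPM at 21 °C, and 13800 to 45200 CPM in heated tho5ab cytoplasm against 49600 to 97200 CPM. Of these markers CAB1 alone held 9970 to 108000 CPM over the cytoplasmic libraries. CAB2, CA1 and GLK2 reached at most 7150, 7380 and 189 CPM there. The summed level of the 3 root markers, nearly all from PYK10, was 37.4 to 108 CPM against 236 to 576 CPM in Col-0 cytoplasm and 25.3 to 46.5 CPM against 102 to 195 CPM in tho5ab cytoplasm. The 2 phloem markers summed to 38.2 to 93.7 CPM against 84.6 to 138 CPM in Col-0 cytoplasm, with overlap. In tho5ab cytoplasm they summed to 31 to 61.1 CPM against at least 57.6 CPM, also with overlap. The 3 guard cell markers overlapped too, at 25.8 to 49 CPM against 14.8 to 56.8 CPM in Col-0 cytoplasm. In tho5ab cytoplasm the guard cell markers were at 16.9 to 81 CPM against 20.8 to 76.1 CPM. The part of these markers in the results was not tested.

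RBCS2B and RBCS1B fell with heat in the nuclei of both genotypes. RBCS2B went from 163 to 250 CPM (median 205) at 21 °C to 54.4 to 89.3 CPM (median 67.7) at 37 °C in Col-0, and from 100 to 152 CPM (median 134) to 34.6 to 60.8 CPM (median 52.7) in tho5ab. RBCS1B went from 221 to 267 CPM (median 243) to 63.5 to 110 CPM (median 92.8) in Col-0, and from 153 to 249 CPM (median 202) to 70.04 to 112 CPM (median 85.2) in tho5ab. The temperatures did not overlap for either gene in either genotype. RBCS2B fell 3.05-fold in Col-0 (log2 −1.61 ± 0.18, edgeR adjusted p = 7.9e-11) and 2.59-fold in tho5ab (edgeR adjusted p = 4.1e-09), and RBCS1B fell 2.61-fold (log2 −1.39 ± 0.15, edgeR adjusted p = 2.5e-11) and 2.34-fold (edgeR adjusted p = 5.6e-10).

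RBCS1A, the copy with the largest fall in the cytoplasm, was not called in the nuclei. It held 336 to 627 CPM (median 406) at 21 °C and 307 to 537 CPM (median 343) at 37 °C in Col-0 (log2 −0.27 ± 0.19, edgeR adjusted p = 0.26). In tho5ab it held 324 to 473 CPM (median 417) and 263 to 420 CPM (median 289), with a log2 difference of −0.42 ± 0.19 (edgeR adjusted p = 0.062). The latter was called with DESeq2 size factors (log2 −0.60, edgeR adjusted p = 0.0074), with library totals only (log2 −0.81, edgeR adjusted p = 1.1e-04) and without replicate 2 (log2 −0.55, edgeR adjusted p = 0.021).

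RBCS3B differed between the genotypes in heated nuclei. In Col-0 nuclei it held 167 to 243 CPM (median 193) at 21 °C and 122 to 185 CPM (median 159) at 37 °C, with overlap (log2 −0.37 ± 0.16, edgeR adjusted p = 0.055). The difference was called as a fall with DESeq2 size factors (log2 −0.47, edgeR adjusted p = 0.012) and with library totals only (log2 −0.52, edgeR adjusted p = 0.0011), and also without the 2 heated tho5ab libraries of replicate 7 (log2 −0.37, edgeR adjusted p = 0.032). In tho5ab nuclei it held 151 to 205 CPM (median 163) at 21 °C and 209 to 341 CPM (median 274) at 37 °C, with no overlap, a 1.66-fold rise (log2 0.73 ± 0.16, edgeR adjusted p = 1.6e-04). The difference between these heat changes passed the test (log2 1.097 ± 0.23, edgeR adjusted p = 0.0015). In the 32 libraries the difference was log2 0.85 and was not called (edgeR adjusted p = 0.11), while the rise within tho5ab remained at log2 0.72 (edgeR adjusted p = 0.0031). For RBCS1B, RBCS2B and RBCS3B summed, the heat changes differed by log2 0.78 ± 0.21 (edgeR adjusted p = 0.022). In the 32 libraries that of the sum was 0.61 and was not called (edgeR adjusted p = 0.34).

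Of the 5 genes, 2 were called lower in heated Col-0 nuclei, where 45.7% of all tested genes passed the test and 23.8% were lower. In tho5ab nuclei 2 were called lower and 2 higher (RBCS3B and RCA), where 52.1% passed, 25.1% higher and 27.1% lower. The sum of the 3 alike copies fell 2.06-fold in Col-0 nuclei (log2 −1.04 ± 0.15, edgeR adjusted p = 1.3e-07). In tho5ab nuclei it gave log2 −0.26 ± 0.15 (edgeR adjusted p = 0.14), which became a called fall with DESeq2 size factors (log2 −0.43, edgeR adjusted p = 0.012) and with library totals only (log2 −0.64, edgeR adjusted p = 1.6e-05). The median of all genes moved from log2 −0.06 to −0.16 with DESeq2 size factors and −0.22 with library totals only in Col-0 nuclei, and from −0.07 to −0.24 and −0.45 in tho5ab nuclei. In nuclei the summed mesophyll markers stood at 1480 to 1790 CPM at 21 °C and 945 to 1090 CPM at 37 °C in Col-0, and at 950 to 1320 CPM and 976 to 1470 CPM in tho5ab. The root markers went from 377 to 547 CPM at 21 °C to 58.4 to 110 CPM at 37 °C in Col-0 nuclei and from 177 to 229 CPM to 30.2 to 50.7 CPM in tho5ab nuclei, with no overlap. The phloem markers went from 55 to 87 CPM to 37.5 to 51.5 CPM in Col-0 and from 48.5 to 57.1 CPM to 33.2 to 42.9 CPM in tho5ab. The guard cell markers went from 131 to 192 CPM to 85.2 to 145 CPM in Col-0 and from 222 to 468 CPM to 180 to 247 CPM in tho5ab. The part of these markers in the nuclear heat changes was not tested.

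**Figure D2:**
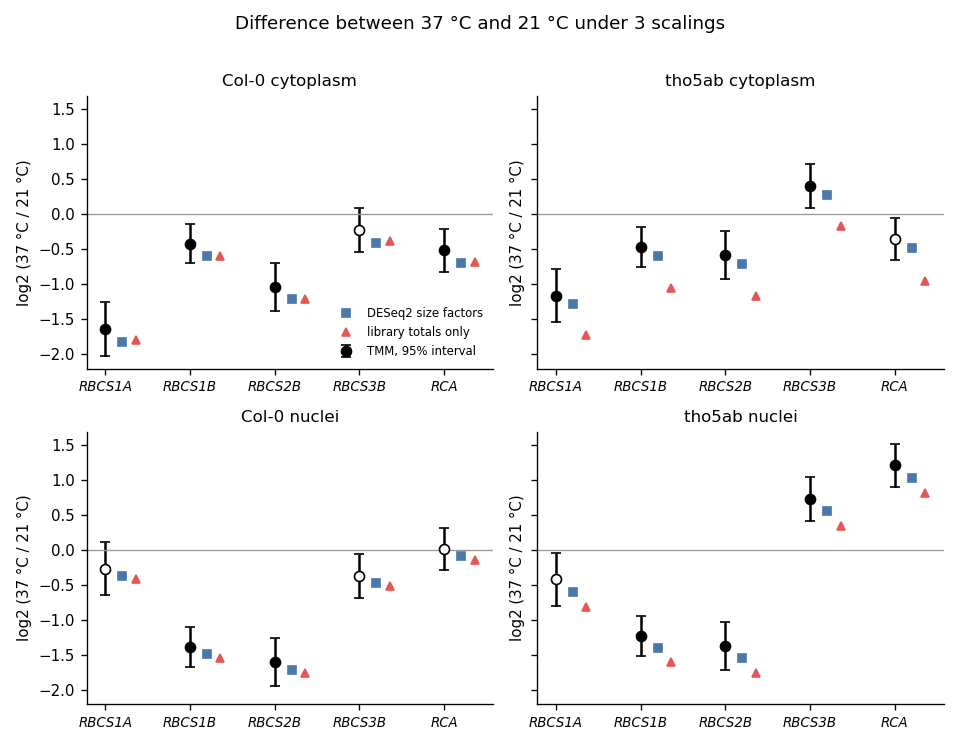
Log2 difference between 37 °C and 21 °C for each gene in the 4 combinations of genotype and fraction. Circles are the edgeR fit with TMM scaling and 95% intervals, filled where the adjusted p is under 0.05, and squares and triangles are the same fit with DESeq2 size factors and with library totals only. RBCS3B in tho5ab cytoplasm moves from 0.41 to −0.18 between scalings, whereas RCA in tho5ab nuclei stays above 0 under all 3.

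The copy composition, the share of each gene in the counts of the 4 RBCS genes of a library, needs no scaling between libraries. In the cytoplasm RBCS1A made up 49.1% to 57.0% (median 53.1%) in Col-0 at 21 °C and 26.9% to 36.6% (median 32.2%) at 37 °C. In tho5ab cytoplasm its share was 46.7% to 60.1% (median 53.8%) and 28.6% to 35.7% (median 32.2%). The temperatures did not overlap, and the differences of −20.8 and −21.3 percentage points passed a two-sided exact permutation test of 6 against 6 libraries (adjusted p = 0.0043 for each over 12 pairs of groups). The unadjusted 0.00216 is the smallest p that this exact test can give. RBCS3B took most of the place given up, with mean shares of 32.1% ± 2.29 (SD, n = 6) at 21 °C and 52.0% ± 3.93 at 37 °C in Col-0 and of 32.8% ± 4.59 and 55.6% ± 3.07 in tho5ab. In the 32 libraries, with smaller groups, the RBCS1A differences were −22.1 and −21.8 points and were not called (exact permutation test, adjusted p = 0.0714 for each).

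In Col-0 nuclei the share of RBCS1A went the other way, from 36.4% to 46.9% (median 39.4%) at 21 °C to 48.8% to 60.9% (median 52.5%) at 37 °C, with no overlap (difference 13.5 percentage points, exact permutation test, adjusted p = 0.0043). In tho5ab nuclei it was 38.4% to 50.2% (median 45.8%) and 37.7% to 49.7% (median 40.9%), with overlap, a difference of −2.76 points that did not pass (exact permutation test, adjusted p = 0.41). There the share of RBCS3B had a mean of 18.7% ± 1.496 at 21 °C and 39.0% ± 3.99 at 37 °C, against 18.3% ± 1.35 and 22.8% ± 3.41 in Col-0 nuclei. At 37 °C the nuclear share of RBCS1A was lower in tho5ab than in Col-0 (difference −11.4 points, exact permutation test, adjusted p = 0.0074), although the groups overlapped. In the 32 libraries this genotype difference was −10.2 points and the heat difference in Col-0 nuclei 13.6 points. Neither was called there (exact permutation test, adjusted p = 0.0714 for each). RBCS1B made up a larger share of nuclear counts, 22.3% ± 2.47 and 22.1% ± 3.27 in Col-0 and tho5ab at 21 °C, than of cytoplasmic ones, 4.37% ± 0.644 and 3.88% ± 0.6003. The annotated exons of RBCS1B are the longest, 1894 bp against 935 bp in RBCS2B, 1268 bp in RBCS1A and 1410 bp in RBCS3B. Shares are not corrected for this length, and its part in the difference between fractions was not tested.

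**Figure D3:**
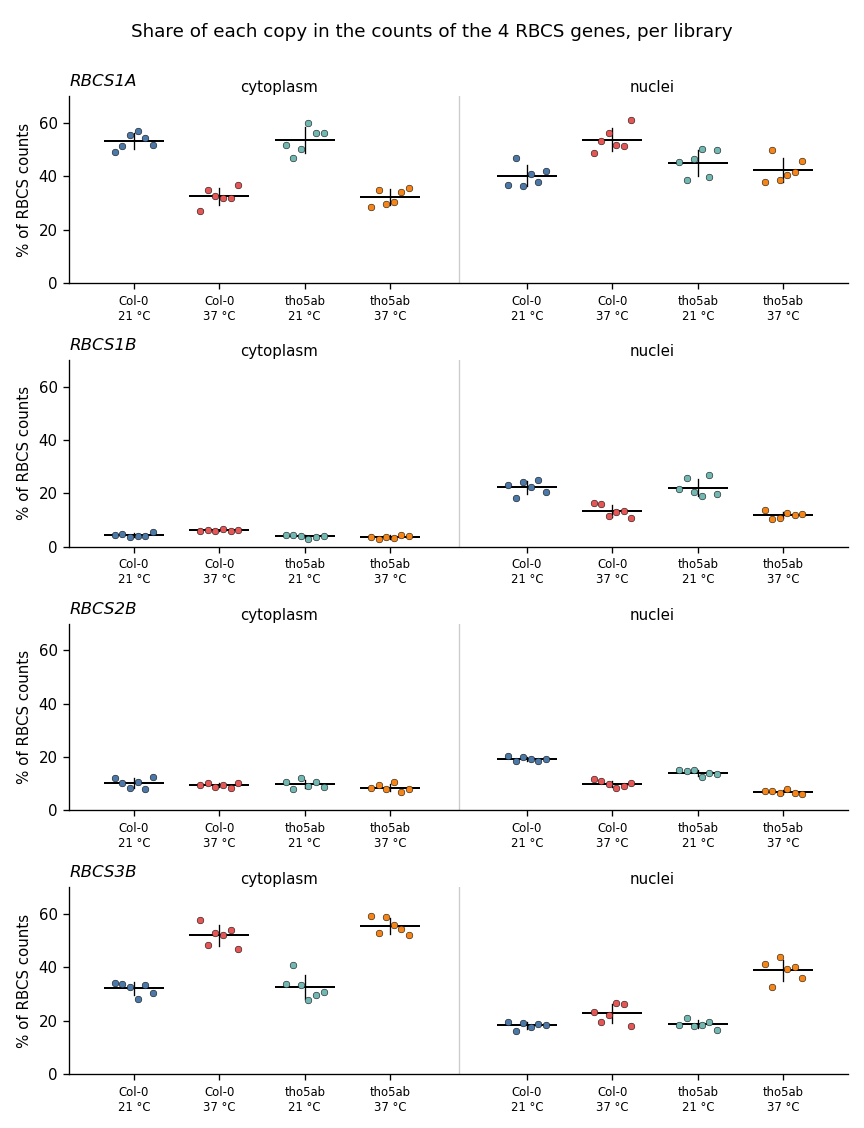
Share in percent of each RBCS gene in the summed counts of the 4 RBCS genes, per library (points), with group mean and SD (lines), cytoplasm on the left and nuclei on the right. The RBCS1A share drops from 53.2% to 32.4% in Col-0 cytoplasm while that of RBCS3B rises from 32.1% to 52.0%, and in nuclei the RBCS3B share is highest in heated tho5ab at 39.0%.

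RCA lies on chromosome 2 at 16570746 to 16573692 (TAIR10.1, reverse strand), with 7 exons and 6 introns, and its opposite-strand neighbour AT2G39725 overlaps it by 3 bp with at most 11.1 CPM. RefSeq lists 3 transcripts with proteins of 474, 446 and 441 amino acids. In Arabidopsis the long and the short activase are known to arise by alternative splicing, and the annotated ends of 1 exon differ by 11 bases, shown in capitals below because the gene-level counts cannot separate the forms (chr2:16571166-16571206, reverse strand, RefSeq, TAIR10.1).
RCA: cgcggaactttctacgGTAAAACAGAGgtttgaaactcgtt

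RCA fell with heat in Col-0 cytoplasm and rose with heat in tho5ab nuclei. In Col-0 cytoplasm it held 10270 to 13940 CPM (median 12700) at 21 °C and 7473 to 9955 CPM (median 8470) at 37 °C, with no overlap, a 1.43-fold fall (log2 −0.52 ± 0.16, edgeR adjusted p = 0.0053). In tho5ab cytoplasm it held 8800 to 15570 CPM (median 11280) and 3799 to 11410 CPM (median 10250), with overlap, and the log2 difference of −0.35 ± 0.15 was not called (edgeR adjusted p = 0.060). The latter was called with DESeq2 size factors (log2 −0.49, edgeR adjusted p = 0.0085), with library totals only (log2 −0.95, edgeR adjusted p = 1.3e-08) and without replicate 1 or 4 (log2 −0.45 for each). The lowest library, at 3799 CPM, was replicate 7, and the difference was log2 −0.19 without the 2 heated tho5ab libraries of that number (edgeR adjusted p = 0.21).

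In Col-0 nuclei RCA held 521 to 703 CPM (median 621) at 21 °C and 539 to 704 CPM (median 625.2) at 37 °C, ranges that nearly coincide (log2 0.01 ± 0.15, edgeR adjusted p = 0.97). In tho5ab nuclei it held 352 to 453 CPM (median 446) at 21 °C and 729 to 1273 CPM (median 1011) at 37 °C, with no overlap, a 2.30-fold rise (log2 1.204 ± 0.16, edgeR adjusted p = 7.0e-09). The genotypes differed in this heat change (log2 1.19 ± 0.22, edgeR adjusted p = 3.2e-04), also in the 32 libraries (log2 1.09, edgeR adjusted p = 0.037) and with library totals only (log2 0.96, edgeR adjusted p = 3.0e-04). Of the 5 genes 2, RBCS3B and RCA, were called for a genotype difference in the nuclear heat change, where 3.69% of all tested genes passed. In the cytoplasm edgeR called 0, where 4.02% passed (unadjusted p under 0.05 for 1 gene, RBCS3B, which DESeq2's Wald test called). In the 32 libraries the heat change of RCA was log2 −0.52 and 0.14 in the cytoplasm and nuclei of Col-0, and −0.41 and 1.24 in those of tho5ab.

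The ratio of RCA counts to the summed counts of the 4 RBCS genes, is also free of scaling between libraries and moved with both of its parts, so it did not always follow the level of RCA. In Col-0 cytoplasm, where RCA fell with heat, the ratio rose. It was 0.463 to 0.601 (median 0.526) there at 21 °C and 0.608 to 0.780 (median 0.701) at 37 °C, with no overlap (log2 difference 0.41, exact permutation test, adjusted p = 0.0087 over 12 pairs of groups). In tho5ab cytoplasm it was 0.499 to 0.817 (median 0.666) and 0.455 to 0.801 (median 0.657), with a log2 difference of −0.02 (exact permutation test, adjusted p = 0.88). The ratio was higher in tho5ab than in Col-0 cytoplasm at 21 °C, by log2 0.33 (exact permutation test, adjusted p = 0.036), where RCA itself gave log2 −0.08 and was not called. At 37 °C their difference was −0.10 (exact permutation test, adjusted p = 0.53). In the 32 libraries that at 21 °C was 0.28 and was not called (exact permutation test, adjusted p = 0.40).

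In Col-0 nuclei, where RCA was not called for heat, the ratio was 0.445 to 0.667 (median 0.586) at 21 °C and 0.612 to 1.06 (median 1.01) at 37 °C, where replicate 6 lay far below the other 5 (log2 difference 0.69, exact permutation test, adjusted p = 0.021). In tho5ab nuclei it was 0.372 to 0.551 (median 0.476) at 21 °C and 0.945 to 1.64 (median 1.38) at 37 °C, with no overlap (log2 difference 1.52, exact permutation test, adjusted p = 0.0087). Heated tho5ab nuclei lay above heated Col-0 nuclei by log2 0.55 (exact permutation test, adjusted p = 0.022). In the 32 libraries the heat differences of the log2 ratio were 0.41 in the cytoplasm and 0.61 in the nuclei of Col-0 and 1.51 in tho5ab nuclei. None was called there (exact permutation test, adjusted p = 0.143, 0.171 and 0.143). The genotype difference in heated nuclei was 0.58 and was not called either (exact permutation test, adjusted p = 0.143). Smaller groups cannot give as small a p as 6 libraries can.

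**Figure D4:**
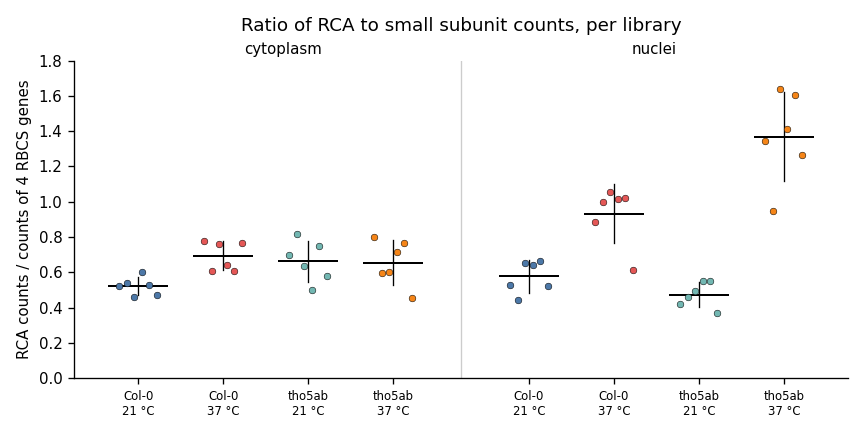
Ratio of RCA counts to the summed counts of the 4 RBCS genes in each library (points), with group mean and SD (lines), cytoplasm on the left and nuclei on the right. Heated tho5ab nuclei have the highest mean, 1.37, and tho5ab nuclei at 21 °C the lowest, 0.474.

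Between the genotypes at 1 temperature, RBCS1B was the gene called in the cytoplasm. It was lower in tho5ab at 21 °C (log2 −0.59 ± 0.14, edgeR adjusted p = 0.013), with no overlap between 566 to 854 CPM in tho5ab and 890 to 1166 CPM in Col-0. It was also 1.56-fold lower at 37 °C (log2 −0.64 ± 0.14, edgeR adjusted p = 0.0017), with overlap. This is 1 of 5 genes in each comparison, where 3.58% of all tested genes passed at 21 °C (1.97% lower) and 14.1% at 37 °C (7.71% lower). The call at 21 °C was lost without replicate 2 (log2 −0.56, edgeR adjusted p = 0.054), without replicate 4 (log2 −0.55, edgeR adjusted p = 0.056) and in the 32 libraries (log2 −0.43, edgeR adjusted p = 0.27). At 37 °C it held in the 32 libraries (log2 −0.60, edgeR adjusted p = 0.0074). The 3 alike copies summed were not called in the cytoplasm, at log2 −0.41 ± 0.15 at 21 °C (edgeR adjusted p = 0.11) and 0.16 ± 0.15 at 37 °C (edgeR adjusted p = 0.52). Without replicate 5 the sum was called at 21 °C (log2 −0.56, edgeR adjusted p = 0.038). Of the marker sums given above for cytoplasm, that of the root did not overlap between the genotypes at 21 °C and was lower in tho5ab, while the others overlapped there and all overlapped at 37 °C. Its part in the results was not tested.

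In the nuclei at 21 °C RBCS2B was 1.63-fold lower in tho5ab (log2 −0.70 ± 0.17, edgeR adjusted p = 0.0018) and RCA 1.46-fold lower (log2 −0.54 ± 0.16, edgeR adjusted p = 0.0080), with no overlap for either. These were 2 of the 5 genes, where 21.5% of all tested genes passed and 8.8% were lower. In the 32 libraries neither was called (log2 −0.62 and −0.47, edgeR adjusted p = 0.091 and 0.16). The 3 alike copies summed gave log2 −0.38 ± 0.15 at 21 °C in all libraries and were not called (edgeR adjusted p = 0.064). At 37 °C RBCS3B was 1.82-fold higher in tho5ab nuclei (log2 0.87 ± 0.16, edgeR adjusted p = 2.3e-05) and RCA 1.57-fold higher (log2 0.65 ± 0.16, edgeR adjusted p = 7.4e-04). Both had no overlap and both were called in the 32 libraries (log2 0.74 and 0.62). RBCS2B was 1.38-fold lower (log2 −0.47 ± 0.17, edgeR adjusted p = 0.029), with overlap, a call lost without replicate 1, 4, 6 or 7 (log2 −0.47, −0.43, −0.34 and −0.38), without the 2 heated tho5ab libraries of replicate 7 (log2 −0.38, edgeR adjusted p = 0.064) and in the 32 libraries (log2 −0.47). Without those 2 libraries RBCS3B gave log2 0.94 and RCA 0.72, both called. These were 3 of 5 genes, where 34.4% of all tested genes passed, 18.5% higher and 15.9% lower. With library totals only all 5 were called, RBCS1A and RBCS1B lower at log2 −0.58 and −0.40. That scaling called 7500 of the 17981 genes, 5331 of them lower, and moved the median of all genes from log2 −0.08 to −0.38, near the value of RBCS1B. The sum of the 3 alike copies was 1.32-fold higher in heated tho5ab nuclei (edgeR adjusted p = 0.032) but not with DESeq2 size factors (log2 0.28, edgeR adjusted p = 0.13) or library totals only (log2 0.10, edgeR adjusted p = 0.54). The nuclear sums of guard cell markers given above were higher in tho5ab than in Col-0 at both temperatures with no overlap, and those of root markers lower with no overlap. The mesophyll sums were lower in tho5ab nuclei at 21 °C with no overlap and overlapped at 37 °C, and the phloem sums overlapped at both temperatures. The part of these markers in the genotype differences was not tested.

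All 5 genes were far lower in nuclei than in cytoplasm relative to the other RNA of the fraction, in both genotypes and at both temperatures and with no overlap. At these comparisons 67%, 61.6%, 67.9% and 63.9% of all tested genes passed in either direction and 28%, 28.9%, 27.4% and 26.9% were lower, for Col-0 at 21 °C and 37 °C and tho5ab at 21 °C and 37 °C in turn. RBCS3B was 37.9-fold, 41.8-fold, 34.2-fold and 27.4-fold lower in nuclei in these 4 comparisons, the largest difference among the 5 genes in each of them. RBCS1B had the smallest among the 5 genes in each, at 4.22-fold, 8.24-fold, 3.36-fold and 5.66-fold. RBCS1A was 28.2-fold, 10.9-fold, 24.3-fold and 14.5-fold lower, RBCS2B 11.3-fold, 16.8-fold, 13.7-fold and 23.6-fold, and RCA 19.6-fold, 13.6-fold, 27.2-fold and 9.22-fold. RBCS1B, RBCS2B and RBCS3B summed were 16.8-fold, 26.6-fold, 16.5-fold and 22.5-fold lower. The sizes rest on the scaling, since with library totals only the median of all genes moved from log2 0.42 to 1.755 in Col-0 at 21 °C. There RBCS1B gave log2 −0.74 in place of −2.08 and RBCS3B −3.89 in place of −5.24.

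Heat changed this nuclear to cytoplasmic difference for some genes. In Col-0 the heat change was more positive in nuclei than in cytoplasm for RBCS1A (log2 1.38 ± 0.27, edgeR adjusted p = 2.3e-04) and more negative for RBCS1B (log2 −0.96 ± 0.20, edgeR adjusted p = 5.1e-04). These were 2 of 5 genes, where 16% of all tested genes passed. In tho5ab it was more positive for RCA (log2 1.56 ± 0.22, edgeR adjusted p = 5.4e-07) and RBCS1A (log2 0.74 ± 0.27, edgeR adjusted p = 0.0498). It was more negative for RBCS2B (log2 −0.79 ± 0.24, edgeR adjusted p = 0.018) and RBCS1B (log2 −0.75 ± 0.20, edgeR adjusted p = 0.0065). These were 4 of 5 genes, where 17% passed. That of RBCS1A in tho5ab was log2 0.40 without replicate 5 (edgeR adjusted p = 0.33) and was not called without replicate 1, 3, 6 or 7 either, although its size was kept at log2 0.81, 0.75, 0.75 and 0.72. It was 0.69 without the 2 heated tho5ab libraries of replicate 7 (edgeR adjusted p = 0.082), where RCA in Col-0 was called at log2 0.53 (edgeR adjusted p = 0.020). That of RBCS1B in tho5ab was lost without replicate 4 or 6 (log2 −0.61 for each). That of RBCS2B was lost without replicate 1, 2 or 4 (log2 −0.75, −0.58 and −0.66), with library totals only (log2 −0.59, edgeR adjusted p = 0.052) and in the 32 libraries (log2 −0.67, edgeR adjusted p = 0.19). In the 32 libraries the values were 1.62 and −0.91 for RBCS1A and RBCS1B in Col-0 and 1.64, 1.05 and −0.75 for RCA, RBCS1A and RBCS1B in tho5ab, all called. The 3 alike copies summed gave log2 −0.66 ± 0.21 in Col-0 (edgeR adjusted p = 0.027), a call lost in the 32 libraries (log2 −0.51, edgeR adjusted p = 0.23). In tho5ab their sum gave log2 −0.45 ± 0.21 and was not called (edgeR adjusted p = 0.15).

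The nuclear to cytoplasmic difference of the members was not shown to differ between the genotypes at either temperature. At 21 °C edgeR called 0 of 5 genes, where 6.4% of all tested genes passed, with an unadjusted p under 0.05 for RCA (log2 −0.47 ± 0.22). DESeq2's Wald test called 0 of the 5 there and 2616 of all 17981 genes. At 37 °C it called 0 of 5, where 14.7% passed, with unadjusted p under 0.05 for RBCS3B (log2 0.61 ± 0.23), RBCS1B (log2 0.54 ± 0.20), RCA (log2 0.56 ± 0.22) and RBCS2B (log2 −0.49 ± 0.24). Of these DESeq2's Wald test called RBCS2B. With library totals only RCA was called at 21 °C (log2 −0.61, edgeR adjusted p = 0.026) and RBCS3B, RCA and RBCS1B at 37 °C (log2 0.66, 0.62 and 0.58), with medians of all genes of −0.14 and 0.06.

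Ordered by mean CPM over the 8 groups, the 4 cytoplasmic groups stood above the 4 nuclear ones for all 5 genes. Neighbours in the order overlapped in 5 of 7 places for RBCS1A, 4 for RBCS1B, 4 for RBCS2B, 6 for RBCS3B and 4 for RCA. RBCS1A, RBCS1B, RBCS2B and RCA were highest in Col-0 cytoplasm at 21 °C, whereas RBCS3B was highest in heated tho5ab cytoplasm, where its libraries overlapped those of the next group.

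The 20 other genes of a list for Rubisco expression, folding, assembly and repair were all tested. Chaperonins fold the large subunit in the stroma, RbcX proteins and accumulation factors help it assemble, and phosphatases remove sugar phosphates that block the active site. In Col-0 cytoplasm 6 of the 20 rose and 11 fell with heat (median log2 −0.63, all genes 0.07), where 24.7% of all tested genes rose and 19.7% fell. In tho5ab cytoplasm 5 rose and 9 fell (median −0.30, all genes −0.01), where 22.2% of all genes rose and 20% fell. In Col-0 nuclei 8 rose and 2 fell (median 0.30, all genes −0.06), where 21.9% rose and 23.8% fell. In tho5ab nuclei 10 rose and 4 fell (median 0.36, all genes −0.07), where 25.1% rose and 27.1% fell.

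The genes that rose most were chaperonin subunits. Cpn60beta2, a subunit of the large chaperonin ring, went from a mean of 213 to 2696 CPM in Col-0 cytoplasm (log2 3.66 ± 0.16, edgeR adjusted p = 9.2e-26). It went from 35.6 to 607 CPM in Col-0 nuclei (log2 4.09 ± 0.16, edgeR adjusted p = 1.9e-27). CPN60A, the alpha subunit, rose by log2 1.65 and 2.64 in the cytoplasm and nuclei of Col-0 and by 1.62 and 2.25 in those of tho5ab. CPN20, a co-chaperonin, rose by 1.63, 1.67, 1.64 and 2.31 in the same order. AT3G60210, annotated as GroES-like, rose in all 4 as well, by up to 2.42. Cpn60beta3 rose in the nuclei of Col-0 and tho5ab, by 1.01 and 0.96, and by 0.998 in tho5ab cytoplasm, and its 0.09 in Col-0 cytoplasm was not called. The main beta subunit gene CPN60B fell in the cytoplasm, at log2 −0.68 in Col-0 and −0.97 in tho5ab, and rose by 0.45 in Col-0 nuclei. Cpn60beta4 fell in the cytoplasm of both genotypes, at log2 −1.17 and −1.74.

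Among the assembly genes, RbcX1 fell in all 4 heat comparisons, at log2 −1.62 and −0.94 in Col-0 cytoplasm and nuclei and −2.63 and −1.55 in tho5ab. The accumulation factor-like genes AT5G28500 and AT3G04550 fell in both cytoplasms, at log2 −0.93 to −1.23, and in tho5ab nuclei, at −1.72 and −1.64. Their differences of −0.25 and −0.34 in Col-0 nuclei were not called. The genotypes differed in that nuclear heat change (log2 −1.46 for AT5G28500 and −1.30 for AT3G04550, both called by edgeR). At 21 °C both were higher in tho5ab nuclei, by log2 2.13 and 1.73. LSMT-L, of the Rubisco methyltransferase family, fell in the cytoplasm of Col-0 and tho5ab, at log2 −1.21 and −1.15, and was lower in tho5ab nuclei at 21 °C and 37 °C, at log2 −0.85 and −1.63. AT5G22620, annotated as a putative 2-carboxy-D-arabinitol 1-phosphate phosphatase, was lower in tho5ab in all 4 genotype comparisons, at log2 −0.93 to −1.13. Of the list 2 of 20 were called lower and 0 higher in tho5ab cytoplasm at 21 °C, where 1.97% of all tested genes were lower and 1.61% higher. At 37 °C 4 were lower and 2 higher, where 7.71% and 6.37% of all genes were. In nuclei 7 were lower and 2 higher at 21 °C, where 8.8% and 12.7% of all genes were, and 11 lower and 3 higher at 37 °C, where 15.9% and 18.5% were.

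Of the remaining named genes, Cpn60alpha2, a chaperonin subunit of low level, rose by log2 1.46 in Col-0 cytoplasm and by 3.05 and 1.79 in the nuclei of Col-0 and tho5ab. It was lower in tho5ab nuclei at 37 °C, at log2 −1.15. RbcX2 fell in heated Col-0 cytoplasm, at log2 −1.09, and rose by 0.44 in heated tho5ab nuclei. AT4G39970, annotated as a hydrolase of the haloacid dehalogenase type, fell in the cytoplasm of Col-0 and tho5ab, at log2 −2.14 and −2.1, and was lower in tho5ab in all 4 genotype comparisons, at log2 −0.73 to −1.13. The similarly annotated AT3G48420 fell in the cytoplasm of both, at log2 −0.94 and −0.63, and rose by 1.13 in tho5ab nuclei. MRL1, a protein that stabilises the large subunit's mRNA in the plastid, was lower in tho5ab nuclei, at log2 −0.73 at 21 °C and −1.27 at 37 °C. Between the fractions 13 to 16 of the 20 genes were lower in nuclei and 2 to 5 higher, depending on genotype and temperature, beside 5 of 5 members lower. Of all tested genes 38.9%, 32.6%, 40.5% and 37% were higher in nuclei, in the order of comparisons given for the members, beside the 26.9% to 28.9% that were lower.

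**Figure D5:**
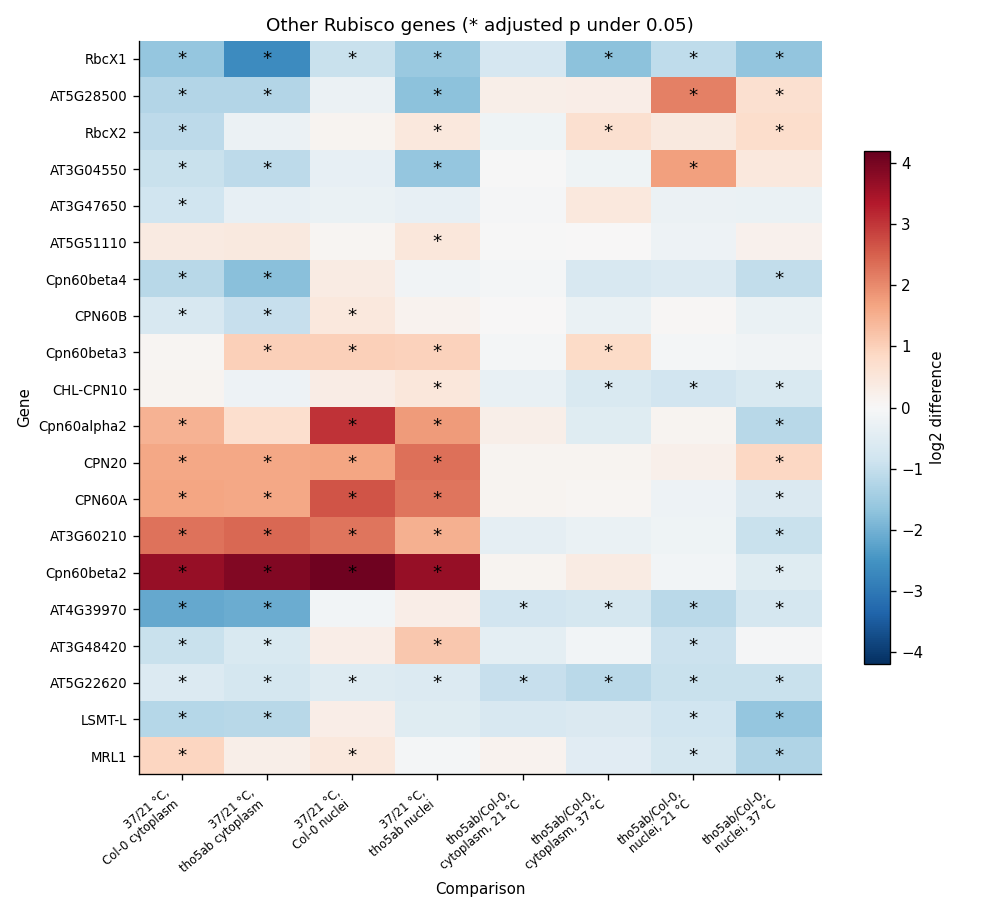
Log2 difference (color) of 20 other Rubisco genes in the 4 heat comparisons and the 4 genotype comparisons, with an asterisk where the edgeR adjusted p is under 0.05. Cpn60beta2 has the darkest red cells, 3.66 to 4.09 in the heat comparisons, and RbcX1 is blue in all 4 of them.

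The genes whose 8 group means of log2 CPM, each centred on its own mean, lay nearest to those of a member were picked from 4441 genes of a mean log2 CPM of at least 5. This is a description over 8 groups with no test. Nearest to RBCS1A were GSA2 (root mean square distance 0.20), emb1473 (0.26), PSBTN (0.26), PSRP5 (0.26) and NRS/ER (0.27). Nearest to RCA were RPS15 (0.22), PRPL28 (0.22), AT4G01310 (0.22), VAR2 (0.24) and CBSX3 (0.25). Between members the distance ran from 0.49 for RBCS1A and RBCS2B to 1.53 for RBCS1B and RBCS3B. Each member had a closer gene outside the set than within it, at 0.23 for RBCS1B, 0.23 for RBCS2B and 0.22 for RBCS3B. With 4441 genes searched outside and only the other members within, this says nothing particular about a member.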

How the data were processed

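The table holds read counts per gene for 48 libraries, deposited by the authors with no normalization; the submitters' processing notes name STAR 2.7.8a, Picard, UMI-tools, featureCounts and TAIR10. Strand and multi-mapping settings of the counting are not given in the sources used here. Per the labels' protocols, libraries came from an rRNA-depleted RNA kit, and ERCC spike-ins were added and were not used here. Total counts were 1025185 to 2174279 in cytoplasm and 2601946 to 19914838 in nuclei, and 0 pairs of libraries were identical.

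The model was edgeR 4.0.16 under R 4.3.3 (TMM scaling, filterByExpr over the 8 groups, 1 mean per group, quasi-likelihood tests of 18 contrasts, Benjamini-Hochberg over 17981 genes, threshold 0.05). The SE is the log2 change divided by the square root of F. CPM used TMM-scaled totals. Shares and ratios within a library were compared by two-sided exact permutation tests (scipy 1.17.1), with log2 CPM for likeness taken with a prior count of 2. DESeq2 1.42.0 served in 2 of 16 alternatives. The fitting code was tested on simulated data.

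The 16 libraries with high opposite-strand counts were found from 82 nested gene pairs whose host had at least 50 CPM. Sequences came from RefSeq's TAIR10.1, and blastn 2.17.0+ was used to look for other copies. The members and the gene list were chosen with earlier results of these data known. Genes named were the members, THO5A and THO5B, some marker genes, listed genes called with a log2 change of at least 1 in a heat or genotype comparison or needed for a count, and the 5 nearest to RBCS1A and to RCA.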

Additional observations from a re-analysis of the deposited data

Results flagged for a closer look

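In 6 of the 56 sets of 6 libraries examined, the highest or lowest library stood apart from the other 5 beyond Dixon's critical value of 0.625, and chance marks about 1 in 20 sets. RBCS1A was at 18770 CPM in tho5ab cytoplasm at 21 °C in replicate 5, where the others held 6968 to 10390, and RBCS2B was at 2886 CPM in the same library, where the others held 1265 to 1695. RBCS1A was at 536.9 CPM in Col-0 nuclei at 37 °C in replicate 6, where the others held 306.8 to 369.1, and the log2 ratio of RCA to RBCS was −0.709 in that library, where the others held −0.177 to 0.0779. RBCS1A was at 419.8 CPM in tho5ab nuclei at 37 °C in replicate 2, where the others held 263.4 to 305.2. RCA was at 351.7 CPM in tho5ab nuclei at 21 °C in replicate 7, where the others held 420.9 to 453.2.

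Of 30 tests of a difference between changes, 8 passed edgeR's adjusted threshold. The nuclear heat change differed between genotypes for RBCS3B, by log2 1.097, and for RCA, by 1.194. The heat change differed between nuclei and cytoplasm in Col-0 for RBCS1A, by log2 1.375, and for RBCS1B, by −0.964. In tho5ab it differed for RCA, by log2 1.558, RBCS1A, by 0.7436, RBCS2B, by −0.7877, and RBCS1B, by −0.7543.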

How the results depend on the processing

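Over 16 alternatives, 1344 of 1440 single-gene values kept their side of the threshold, including values called in neither fit that changed sign. Another 43 lost and 52 gained a call, and 1 called value turned its direction. That was RBCS3B in heated tho5ab cytoplasm, at log2 −0.18 with library totals only, where the 3 alike copies summed also turned, to −0.40. With library totals only, the members called were 4 for heat in Col-0 nuclei, 5 for genotype in nuclei at 37 °C, and 1 and 3 for genotype by fraction at 21 °C and 37 °C. Of all 17981 genes, 8290, 7500, 1163 and 2591 were called there in turn. The summed copies gave −0.64 for heat in tho5ab nuclei and −0.46 and 0.10 for genotype in nuclei at 21 °C and 37 °C. With DESeq2 size factors these 3 sums were −0.43, −0.44 and 0.28, and with DESeq2's Wald test −0.43, −0.44 and 0.28. With the latter the sum for genotype by heat in cytoplasm was 0.62 and 1 member was called for it and 1 for genotype by fraction at 37 °C. That test called 1869 and 4556 of 17981 genes in these comparisons. Without the filter the sums were −0.36 for heat in Col-0 cytoplasm and 0.38 for genotype in nuclei at 37 °C. With only the groups compared, 2 members were called for heat by fraction in tho5ab, where 2468 of 16740 genes were. The sum for genotype in nuclei at 21 °C was then −0.34. A covariate for the 16 libraries gave 1 member for genotype by fraction at 37 °C, where 2917 of 17981 genes were called. Without those 16 libraries, 0 members were called for genotype in cytoplasm and in nuclei at 21 °C and 1 for genotype by heat in nuclei. Of 19047 genes tested without them, 138, 2726 and 386 were called in these comparisons. The sums there were −0.35 for heat in Col-0 cytoplasm, 0.38 for genotype in nuclei at 37 °C, 0.61 for genotype by heat in nuclei and −0.51 for heat by fraction in Col-0. The log2 ratio of RCA to RBCS was 0.41, 0.61 and 1.51 for heat in Col-0 cytoplasm, Col-0 nuclei and tho5ab nuclei. It was 0.28 and 0.58 for genotype in cytoplasm at 21 °C and nuclei at 37 °C, and 0.36, −0.44 and 1.04 for fraction in Col-0 at 37 °C, tho5ab at 21 °C and tho5ab at 37 °C. The RBCS1A share differed by −22.1, 13.6 and −21.8 points for heat in Col-0 cytoplasm, Col-0 nuclei and tho5ab cytoplasm. It differed by −10.2 for genotype in nuclei at 37 °C, and by −14.2, 21.5, −11.6 and 10.4 for fraction in Col-0 and then tho5ab at 21 °C and 37 °C. These ratios and shares lost their calls in groups of 3 to 5 libraries, where 3 against 3 cannot go below p = 0.1 in an exact permutation test. That limit covers genotype in cytoplasm at 21 °C and fraction in tho5ab at 21 °C only, and the other comparisons held at least 1 larger group. Among those, the log2 ratio gave an adjusted p of 0.171 for heat in Col-0 nuclei and for fraction in Col-0 at 37 °C (exact permutation test). Leaving out each replicate in turn, the members called ranged over 2 to 4 for heat in tho5ab cytoplasm, 0 to 2 for genotype in cytoplasm at 21 °C, and 0 to 1 for genotype by heat in cytoplasm. They ranged over 0 to 2 for genotype by fraction at 37 °C and 2 to 3 for heat by fraction in tho5ab. In the same order, the genes called of all 17947 to 18151 tested were 6831 to 7584, 425 to 722, 452 to 911, 2096 to 2661 and 2387 to 3048. The sums ranged over −0.44 to −0.32 and 0.060 to 0.40 for heat in Col-0 and tho5ab cytoplasm. They were −0.56 to −0.35, −0.42 to −0.31 and 0.33 to 0.48 for genotype in cytoplasm at 21 °C and nuclei at 21 °C and 37 °C. They were 0.44 to 0.85 and 0.73 to 0.83 for genotype by heat in cytoplasm and nuclei, and −0.75 to −0.60 and −0.71 to −0.30 for heat by fraction in Col-0 and tho5ab. The log2 ratios ranged over 0.59 to 0.80 for heat in Col-0 nuclei. They were 0.28 to 0.42 and 0.39 to 0.68 for genotype in cytoplasm at 21 °C and nuclei at 37 °C, and 0.34 to 0.56 and −0.60 to −0.41 for fraction in Col-0 at 37 °C and tho5ab at 21 °C. The shares ranged over 3.36 to 7.52 points for genotype in nuclei at 21 °C and −9.41 to −6.94 for fraction in tho5ab at 21 °C. By the rule that every same-numbered pair correlate above 0.1, replicate numbers did not pair the libraries. Between groups of 1 fraction the correlations ran from −0.45 to 0.476. Between nuclei and cytoplasm of a group all were positive, at 0.0015 to 0.283, with 3 to 5 of 6 pairs above 0.1. There 3 or 4 of 6 libraries were nearest to their own number, against means of −0.03 to −0.02 for other pairs. These values are a hint of pairing. Both fractions of each group also carry the same replicate numbers, although the sample names do not say whether a number marks the same plants. Tests between fractions treated the libraries as unpaired. The replicate block, a term for the number over all groups, does not model such pairs either. The replicate block gave 7698 genes for heat in Col-0 cytoplasm against 7976 without it. It called 1 member for genotype by fraction at 37 °C, where it called 2502 of 17981 genes. It left 87 of 90 single-gene calls as they were, with 2 gained and 1 lost. The cause of these shifts was not tested.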
